A study of Mus musculus with 6 samples.

Results

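The 10 genes described here encode enzymes of NAD metabolism in the mouse kidney, which make NAD, draw off a precursor of it (Acmsd) or convert it to NADP: Afmid, Kmo, Kynu, Haao, Acmsd, Qprt, Nampt, Nmnat1, Nadsyn1 and Nadk. They were taken by symbol from the 21367 genes of the deposited table, and all 10 passed the filter on low counts. The groups were 3 Ptpn6+/mev mice and 3 wild-type littermates, 7 weeks old and on a C57BL/6 background. Ptpn6+/mev mice are heterozygous for viable motheaten (mev), a germline splice-site mutation of the gene for the phosphatase SHP-1, and their other Ptpn6 copy is wild-type. In all 6 mice the right kidney had been removed and the left renal pedicle clamped for 34 min, and the left kidney was taken after 24 h of reperfusion. The comparison therefore asks how the genotype bears on these transcripts after renal ischemia-reperfusion injury (IRI), and kidneys without IRI were not analysed here. Each library was made from poly-A RNA of the left kidney tissue of 1 mouse, not of sorted cells, so the allele was present in every cell type of the sample. The GEO labels call the genotype a knockdown of SHP1.

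NAD carries electrons in glycolysis, the citric acid cycle and fatty acid oxidation, and it is also used up as a substrate by sirtuins, PARP enzymes and the hydrolase CD38. Cells make it from tryptophan by the de novo (kynurenine) pathway, from nicotinamide by salvage, and from nicotinic acid or nicotinamide riboside by shorter routes. Besides the liver, the renal proximal tubule is a main site of the de novo pathway, and lower levels of its enzymes and of NAD are known from acute kidney injury. Levels of RNA were measured here, and neither NAD nor any enzyme activity.

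Counts summed to between 10271590 and 12361745 per library, and levels are given as FPKM, fragments scaled to transcript length and library size, which allow genes of different length to be compared. Wild-type replicate 2 stood apart from the other libraries, with a scaling factor (TMM) of 0.929 against 0.994 to 1.03. Without it the edgeR quasi-likelihood test called 237 genes at an FDR under 0.05, against 18 with all 6 libraries. For that reason, named genes and lists are also given without it where it turned their sign or moved their log2 fold change by over 1.5 times. Values of single mice follow the order of replicates 1 to 3 in each group. Ptpn6 itself stood at an FPKM of 11.85, 14.7 and 13.6 in the Ptpn6+/mev mice and 17.5, 10.9 and 15.4 in the wild-type mice. The log2 fold change was -0.19 (SE 0.17, adjusted p = 0.715, edgeR quasi-likelihood test), -0.34 without wild-type replicate 2 and -0.06 without wild-type replicate 1, and a splice-site allele need not lower the count of its gene. Kidney markers were present in every library, with summed FPKM of 11 proximal tubule markers between 2048 and 3473.

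None of the 10 genes passed an FDR of 0.05 by the edgeR quasi-likelihood test, where 0.138% of the 13036 tested genes did. At an unadjusted p under 0.05, 4 of the 10 were lower in Ptpn6+/mev kidneys (Haao, Nadsyn1, Kmo and Afmid) and 0 were higher, against 6.71% of tested genes lower and 5.53% higher. In 5 of the 10 (Haao, Kmo, Nadsyn1, Afmid and Nmnat1) every Ptpn6+/mev mouse had a lower FPKM than every wild-type mouse, as in 6.38% of tested genes. None was apart in the other direction, as 14.0% of tested genes were, and on CPM (counts scaled to library size) adjusted by TMM the same 5 genes were apart, with backgrounds of 9.80% lower and 9.64% higher. The choice of test decided the calls: edgeR's exact test and DESeq2 each called Haao, Kmo and Nadsyn1 lower at an FDR under 0.05, with 1.78% and 1.88% of tested genes called lower. The median log2 fold change of the 10 genes was -0.39, and -0.32 without wild-type replicate 2, beside -0.002 over all tested genes.

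**Figure D1:**
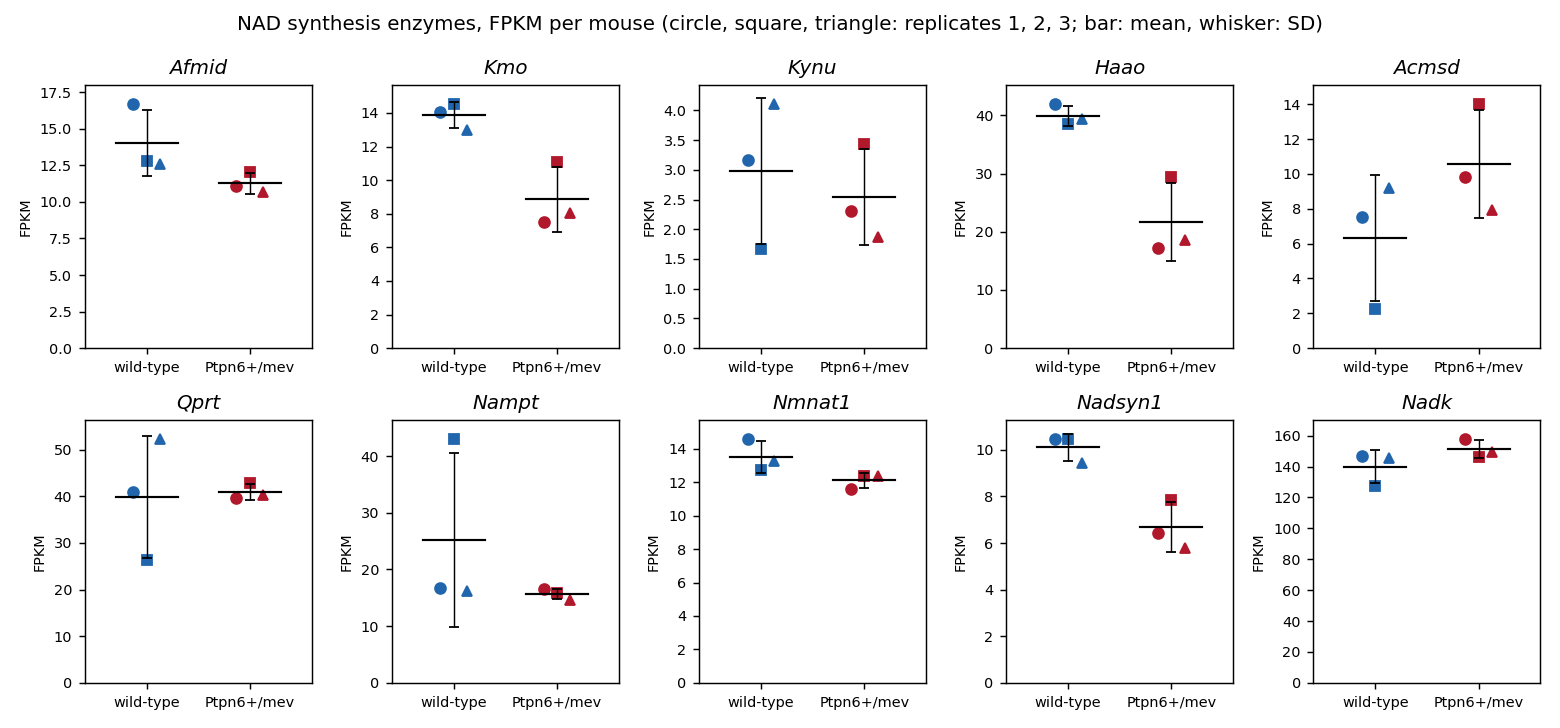
FPKM (y axis, from 0) of the 10 NAD synthesis genes in each wild-type (blue) and Ptpn6+/mev (red) mouse, with symbols for replicates 1 to 3, a bar at the group mean and whiskers of 1 SD. The groups are apart for Haao, Kmo, Nadsyn1, Afmid and Nmnat1, and wild-type replicate 2 lies away from its group for Nampt (43.0), Acmsd (2.27) and Qprt (26.3).

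Haao, which encodes 3-hydroxyanthranilate dioxygenase, the enzyme that opens the ring of the last stable kynurenine pathway intermediate before quinolinate, had the lowest p of the 10. It lies on chromosome 17 from 83831156 to 83847963, on the minus strand. Haao stood at an FPKM of 17.15, 29.4 and 18.6 in the Ptpn6+/mev mice and 41.9, 38.5 and 39.5 in the wild-type mice. All 3 wild-type mice lay close together, while Ptpn6+/mev replicate 2 stood between them and the other 2 mice of its genotype. The means were 21.7 ± 6.72 (SD, n = 3) and 39.9 ± 1.76 (SD, n = 3). The fitted level was 51.8% of wild-type, a log2 fold change of -0.95 (SE 0.20, 95% interval -1.40 to -0.49, adjusted p = 0.110, edgeR quasi-likelihood test). With edgeR's exact test the adjusted p was 0.00158, and with DESeq2 it was 0.00149. In the quasi-likelihood fit it was 0.0463 without wild-type replicate 2, where 1.09% of tested genes were called lower, and 0.0333 without Ptpn6+/mev replicate 2, where 0.0455% were. With any other library left out it was between 0.129 and 0.470. The log2 fold change ranged from -1.23 to -0.80 over the 6 fits that each left out 1 library.

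Kmo encodes kynurenine 3-monooxygenase, the enzyme of the outer mitochondrial membrane that commits kynurenine to this route, and lies on chromosome 1 from 175620381 to 175662116. Kmo stood at an FPKM of 7.48, 11.1 and 8.04 in the Ptpn6+/mev mice and 14.1, 14.5 and 13.01 in the wild-type mice. As for Haao, Ptpn6+/mev replicate 2 was the highest of its group and still below each wild-type mouse. With means of 8.87 ± 1.94 (SD, n = 3) and 13.9 ± 0.771 (SD, n = 3), the fitted level was 61.0% of wild-type. The log2 fold change was -0.71 (SE 0.17, 95% interval -1.10 to -0.32, adjusted p = 0.145, edgeR quasi-likelihood test), and the adjusted p was 0.0134 in the exact test and 0.0137 in DESeq2. No single library left out brought it under 0.05 in the quasi-likelihood test, where the lowest value was 0.0822.

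Afmid, Kynu and Qprt encode further steps of the de novo route, and Acmsd the branch that leads away from it. Afmid encodes the formamidase that releases kynurenine from N-formylkynurenine and lies on chromosome 11 from 117825924 to 117839908. Afmid stood at an FPKM of 11.1, 12.05 and 10.7 in the Ptpn6+/mev mice and 16.7, 12.8 and 12.6 in the wild-type mice, so the groups were apart by a narrow margin and wild-type replicate 1 was far above the rest. The log2 fold change was -0.38 (SE 0.14, 95% interval -0.70 to -0.06, adjusted p = 0.318, edgeR quasi-likelihood test). Without wild-type replicate 1 it was -0.26, with an unadjusted p of 0.0994 in that test. Without Ptpn6+/mev replicate 1 or 3 the unadjusted p was 0.0622 or 0.0823, and it was under 0.05 with any other library left out. Of its 3539 exon bases, 1566 are shared with the gene model Gm20708 on the same strand and 83 with Tk1 on the other strand, so the level of Afmid is uncertain. Tk1, a thymidine kinase gene of dividing cells, had an FPKM of 24.9 to 32.2 in Ptpn6+/mev kidneys and 7.82 to 17.2 in wild-type kidneys. Its log2 fold change was 1.00 (SE 0.25, adjusted p = 0.158, edgeR quasi-likelihood test). In FPKM, 14.0% of all tested genes were apart in that direction, and the lowest Tk1 level was that of wild-type replicate 2.

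Kynu, which encodes kynureninase and lies on chromosome 2 from 43555329 to 43682715, was the least abundant member. Kynu stood at an FPKM of 2.31, 3.44 and 1.87 in the Ptpn6+/mev mice and 3.17, 1.66 and 4.10 in the wild-type mice. The groups overlapped over most of their range, with 34 to 109 counts per library and the wild-type mice at both ends. The log2 fold change of -0.40 had a wide 95% interval, -1.28 to 0.47 (SE 0.38, adjusted p = 0.739, edgeR quasi-likelihood test). It was -0.70 without wild-type replicate 2, -0.05 without wild-type replicate 3, -0.65 without Ptpn6+/mev replicate 2 and -0.21 without Ptpn6+/mev replicate 3, so its size depended on single mice.

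At the end of the route the product of HAAO can close to quinolinate, which QPRT turns into nicotinic acid mononucleotide, or be drawn off by the decarboxylase ACMSD towards complete oxidation. Qprt lies on chromosome 7 from 127107114 to 127122226, on the minus strand. Qprt stood at an FPKM of 39.7, 42.75 and 40.3 in the Ptpn6+/mev mice and 41.0, 26.3 and 52.2 in the wild-type mice, so the wild-type mice enclosed the Ptpn6+/mev mice on both sides. The log2 fold change was -0.02 (SE 0.19, 95% interval -0.47 to 0.43, adjusted p = 0.982, edgeR quasi-likelihood test), an interval that still allows changes of that size in either direction. It was -0.23 without wild-type replicate 2. On log2(FPKM + 1) it was 0.090, in a fit where the median of all tested genes was 0.06. Its sign was also positive under the replicate block and without Ptpn6+/mev replicate 1 or wild-type replicate 3.

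Acmsd, on chromosome 1 from 127729413 to 127767978, had the highest positive log2 fold change of the 10 genes, though its groups overlapped. Acmsd stood at an FPKM of 9.82, 14.0 and 7.91 in the Ptpn6+/mev mice and 7.55, 2.27 and 9.20 in the wild-type mice. Its fitted log2 fold change of 0.68 (SE 0.42, 95% interval -0.29 to 1.66, adjusted p = 0.590, edgeR quasi-likelihood test) was 0.29 without wild-type replicate 2, whose level was the lowest of the 6. It was 0.43 without Ptpn6+/mev replicate 2 and 1.04 without wild-type replicate 3. Only 94 of its exon bases, 3.32%, are shared with an antisense gene, 2900009J06Rik.

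**Figure D2:**
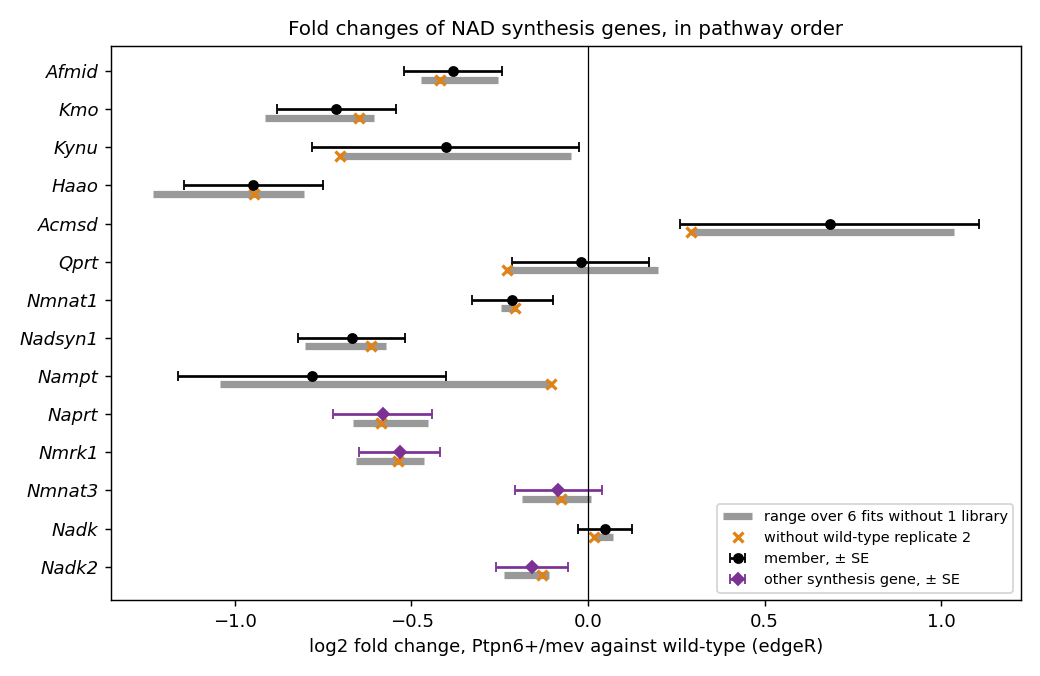
Log2 fold change of Ptpn6+/mev against wild-type kidneys (x axis, edgeR) for the 10 members (black) and 4 other NAD synthesis genes (purple) in pathway order, with whiskers of 1 SE, a grey bar for the range over 6 fits that each left out 1 library, and a cross for the fit without wild-type replicate 2. Haao, Kmo, Nadsyn1, Afmid, Nmnat1, Kynu, Nampt, Nmrk1, Naprt and Nadk2 stay below 0 in every fit shown, though Nampt moves from -0.78 to -0.11 and Acmsd from 0.68 to 0.29 without wild-type replicate 2.

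The 250 bases upstream of the RefSeq transcription start (GRCm38.p6, given 5′ to 3′ on the strand of the gene) are shown for the 3 genes that the exact test and DESeq2 called lower, Haao, Kmo and Nadsyn1. The windows are chr17:83846791-83847040 (minus strand) for Haao, chr1:175631943-175632192 (plus strand) for Kmo and chr7:143822853-143823102 (minus strand) for Nadsyn1. For Haao and Kmo the RefSeq start lies inside the longest gene model of GENCODE. Capitals mark matches on either strand to a nuclear receptor half-site (AGGTCA), an HNF1 half-site (GTTAAT), a GC box (GGGCGG) or an E-box (CACGTG).
Haao: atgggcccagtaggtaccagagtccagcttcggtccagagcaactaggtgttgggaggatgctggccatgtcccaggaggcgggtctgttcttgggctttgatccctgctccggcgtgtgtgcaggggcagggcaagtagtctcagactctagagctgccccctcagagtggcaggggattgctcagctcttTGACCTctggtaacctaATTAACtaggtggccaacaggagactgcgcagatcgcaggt
Kmo: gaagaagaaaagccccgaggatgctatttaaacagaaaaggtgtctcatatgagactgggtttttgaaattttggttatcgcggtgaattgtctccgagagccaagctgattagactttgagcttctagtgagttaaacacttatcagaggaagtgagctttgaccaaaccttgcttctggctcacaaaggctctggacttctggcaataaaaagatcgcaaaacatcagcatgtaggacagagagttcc
Nadsyn1: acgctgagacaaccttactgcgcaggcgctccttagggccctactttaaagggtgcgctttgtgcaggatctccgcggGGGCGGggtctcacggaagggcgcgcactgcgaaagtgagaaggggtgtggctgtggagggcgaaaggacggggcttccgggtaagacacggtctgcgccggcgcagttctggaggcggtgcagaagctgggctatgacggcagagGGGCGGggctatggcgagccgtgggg
The window of Haao holds a nuclear receptor half-site 58 to 53 bases before the start and an HNF1 half-site 41 to 36 bases before it, both on the strand opposite to the gene, so that the printed sequence shows their reverse complements. HNF1 factors and several nuclear receptors are transcription factors of the proximal tubule. Nadsyn1 has GC boxes at 172 to 167 and 26 to 21 bases, on the strand of the gene, and Kmo has none of the 4 motifs. Among all 32851 mouse windows of this length, 14.0% hold the nuclear receptor half-site, 6.43% the HNF1 half-site, 32.7% a GC box and 6.02% an E-box. A match of letters does not show that a factor binds there.

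Ratios within a mouse do not depend on the depth of its library, and they set the branches of the pathway against each other. The ratio of Haao to Acmsd was 1.75, 2.1 and 2.35 in the Ptpn6+/mev mice and 5.55, 17.0 and 4.29 in the wild-type mice. The groups were apart, and wild-type replicate 2 was the extreme value. The ratio of Qprt to Acmsd was 4.04, 3.06 and 5.09 against 5.43, 11.6 and 5.68. Here the groups were also apart, but the highest Ptpn6+/mev mouse came near the lowest wild-type mouse. Haao relative to Qprt was 0.432, 0.689 and 0.461 against 1.02, 1.46 and 0.755. The summed FPKM of the 6 de novo genes overlapped between groups, at 87.35 to 113 in Ptpn6+/mev kidneys and 96.1 to 131 in wild-type kidneys. Within that sum the share of Haao was 19.6%, 26.1% and 21.3% against 33.7%, 40.1% and 30.2%, so the groups were apart in this share though not in the total. These ratios were set side by side as descriptions, without a test. How many ratios of other gene pairs were apart was not counted, and Haao alone was already apart between the groups. The ratio of Haao to Qprt and the share of Haao were not among the quantities first planned.

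**Figure D3:**
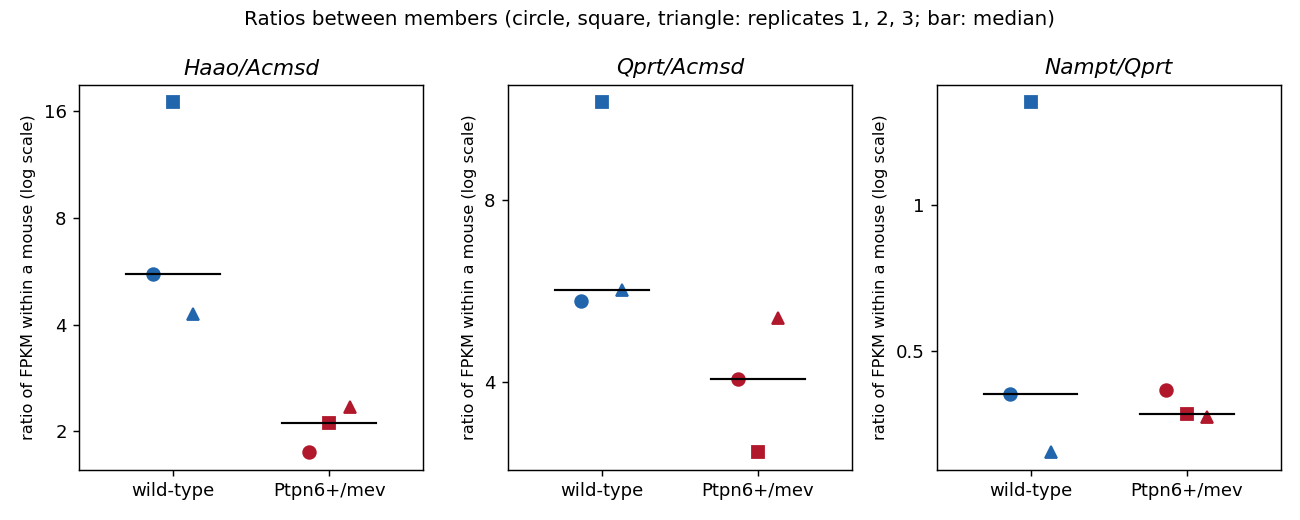
Ratio of FPKM within each mouse (y axes, log scale) for Haao to Acmsd, Qprt to Acmsd and Nampt to Qprt in wild-type (blue) and Ptpn6+/mev (red) kidneys, with symbols for replicates 1 to 3 and a bar at the group median. The first 2 ratios are apart between the groups, and Nampt to Qprt overlaps, with wild-type replicate 2 at 1.63 and the other 5 mice between 0.309 and 0.416.

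Among the genes of salvage and of the final steps, Nadsyn1 was the one that stood with Haao and Kmo. It encodes NAD synthetase, which amidates nicotinic acid adenine dinucleotide and so completes both the de novo and the nicotinic acid route, and lies on chromosome 7 from 143795584 to 143822849, on the minus strand. Nadsyn1 stood at an FPKM of 6.43, 7.86 and 5.79 in the Ptpn6+/mev mice and 10.5, 10.45 and 9.44 in the wild-type mice. The groups were apart, with means of 6.69 ± 1.06 (SD, n = 3) and 10.1 ± 0.586 (SD, n = 3), and Ptpn6+/mev replicate 2 was again the highest of its group. The fitted level was 62.9% of wild-type, a log2 fold change of -0.67 (SE 0.15, 95% interval -1.02 to -0.32, adjusted p = 0.131, edgeR quasi-likelihood test). Exact testing gave an adjusted p of 0.0147 and DESeq2 0.0144, and the value stayed between 0.0739 and 0.516 when 1 library was left out of the quasi-likelihood fit.

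Nampt encodes the rate-limiting enzyme of salvage from nicotinamide, on chromosome 12 from 32819545 to 32853349. Nampt stood at an FPKM of 16.5, 15.85 and 14.7 in the Ptpn6+/mev mice and 16.7, 43.0 and 16.1 in the wild-type mice. A single mouse made the difference between the means: wild-type replicate 2 was far above the other 5, which lay close together. With all libraries the log2 fold change was -0.78 (SE 0.38, 95% interval -1.66 to 0.10, adjusted p = 0.462, edgeR quasi-likelihood test) and -0.11 without that mouse. The same mouse was the lowest of the 6 for Acmsd, Qprt, Kynu and Nadk.

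Nmnat1 and Nadk act on either side of NAD itself. Nmnat1, the nuclear adenylyltransferase that joins the mononucleotide to AMP, lies on chromosome 4 from 149467572 to 149485202, on the minus strand. Nmnat1 stood at an FPKM of 11.6, 12.4 and 12.4 in the Ptpn6+/mev mice and 14.6, 12.7 and 13.3 in the wild-type mice. The groups were apart by little, and the log2 fold change of -0.21 (SE 0.11, 95% interval -0.48 to 0.05) had an adjusted p of 0.514 by the edgeR quasi-likelihood test. Nadk, the cytosolic kinase that makes NADP, lies on chromosome 4 from 155562378 to 155591001 and was the most abundant member. Nadk stood at an FPKM of 158, 146 and 149 in the Ptpn6+/mev mice and 147, 128 and 145 in the wild-type mice. With a log2 fold change of 0.05 (SE 0.08, adjusted p = 0.872, edgeR quasi-likelihood test), its 95% interval of -0.13 to 0.22 was the narrowest of the 10, and the log2 fold change was 0.02 without wild-type replicate 2.

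By mean FPKM the order in wild-type kidneys was Nadk, Haao, Qprt, Nampt, Afmid, Kmo, Nmnat1, Nadsyn1, Acmsd and Kynu. Only Nadk and Haao, Nmnat1 and Nadsyn1, and Nadsyn1 and Acmsd were neighbours whose ranges did not overlap. In Ptpn6+/mev kidneys the order was Nadk, Qprt, Haao, Nampt, Nmnat1, Afmid, Acmsd, Kmo, Nadsyn1 and Kynu. There the first 4 were each apart from the next, and so was Kynu from Nadsyn1, while the ranges of neighbours from Nmnat1 to Nadsyn1 overlapped. Haao and Qprt thus stood level in wild-type kidneys, at means of 39.9 and 39.8, and apart in Ptpn6+/mev kidneys, at 21.7 and 40.9. Acmsd had a lower mean than Kmo and Nadsyn1 in wild-type kidneys and a higher one in Ptpn6+/mev kidneys.

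Of 55 further genes of NAD metabolism 49 could be tested, and by the edgeR quasi-likelihood test 0 of them passed an FDR of 0.05. At an unadjusted p under 0.05, 5 of the 49 were lower and 1 was higher in Ptpn6+/mev kidneys, beside 6.71% and 5.53% of all tested genes. In FPKM 5 were apart in the lower direction and 6 in the higher, beside 6.38% and 14.0% of all tested genes. On TMM-scaled CPM the balance turned, with 10 lower and 4 higher, beside 9.80% and 9.64%. Over the 49 genes the median log2 fold change was -0.11, or -0.06 without wild-type replicate 2. The exact test and DESeq2, which called 1.78% and 1.88% of all tested genes lower, each called 2 of the 49: Nmrk1 and Naprt, which open the remaining routes to NAD. Nmrk1, the kinase of nicotinamide riboside, had an FPKM of 29.1, 37.3 and 30.0 in the Ptpn6+/mev mice and 46.2, 42.6 and 44.5 in the wild-type mice. This gave a log2 fold change of -0.53 (SE 0.11, adjusted p = 0.115, edgeR quasi-likelihood test, 0.0109 in the exact test and 0.00944 in DESeq2). Naprt, which converts nicotinic acid to its mononucleotide, had an FPKM of 9.65, 12.7 and 13.2 against 17.2, 16.1 and 17.45. Its log2 fold change was -0.58 (SE 0.14, adjusted p = 0.150, edgeR quasi-likelihood test, 0.0264 in the exact test and 0.0261 in DESeq2). In both genes every Ptpn6+/mev mouse was below every wild-type mouse. Nmnat3, the mitochondrial counterpart of Nmnat1, overlapped between the groups, with a log2 fold change of -0.08.

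Tdo2, the tryptophan dioxygenase of the liver, had 0 counts in all 6 libraries, which, at a limit of 3 counts in the 65521720 of all libraries, allows up to 0.0458 CPM. Ido1 and Ido2, which catalyse the same first step, reached at most 0.17 and 0.53 FPKM, so no gene of this entry step could be tested. Of 8 transporters, 1 was lower at an unadjusted p under 0.05, beside 6.71% of all tested genes. Slc5a8, a carrier of nicotinate and other monocarboxylates, had an FPKM of 1.69 to 2.27 in Ptpn6+/mev kidneys and 2.63 to 4.27 in wild-type kidneys. For this gene the log2 fold change was -0.84 (SE 0.25, adjusted p = 0.221, edgeR quasi-likelihood test), and -0.55 without wild-type replicate 2. Slc3a2, a subunit of amino acid transporters, and Slc25a51, the mitochondrial NAD carrier, had log2 fold changes of -0.16 and 0.13 with overlapping groups, and of -0.29 and 0.03 without wild-type replicate 2. Without wild-type replicate 3, Slc3a2 had -0.07. The median of the 8 was -0.16 with all libraries and -0.27 without wild-type replicate 2. The 4 aminotransferase genes that draw kynurenine off to kynurenic acid had a median log2 fold change of -0.13, or -0.03 without wild-type replicate 2. In this list Kyat1 had -0.43, or -0.10 without that mouse, and Got2 had -0.18.

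Among genes whose products use NAD, no list had a median far from 0. It was -0.10 for 7 sirtuin genes, or -0.03 without wild-type replicate 2, -0.05 for 14 PARP genes and -0.02 for 2 NAD hydrolase genes. In FPKM 1 sirtuin gene (Sirt3) was apart in the lower direction and 3 in the higher, Sirt2 among them, beside 6.38% and 14.0% of all tested genes. On TMM-scaled CPM 3 were lower and 2 higher, beside 9.80% and 9.64%. Sirt3, the mitochondrial deacetylase, had an FPKM of 28.6 to 29.9 in Ptpn6+/mev kidneys and 32.5 to 48.0 in wild-type kidneys, a log2 fold change of -0.49 (SE 0.20, adjusted p = 0.363, edgeR quasi-likelihood test). It was -0.23 without wild-type replicate 2, and the gene had fractional counts, so reads may have been shared with another locus. Parp10 was lower, with a log2 fold change of -0.48 that was -0.28 without wild-type replicate 2, and Parp6 higher, with 0.41, both at an unadjusted p under 0.05 and with adjusted p of 0.290 and 0.397 by the edgeR quasi-likelihood test. Sirt2, Parp3 and Tnks2, the most abundant of their lists with Sirt3, had log2 fold changes of 0.17, 0.13 and 0.07, and without wild-type replicate 2 those of Parp3 and Tnks2 were -0.06 and 0.16. Cd38 and Bst1, the hydrolases, had -0.05 and 0.01, or -0.33 and 0.27 without wild-type replicate 2, and their signs changed between fits. For nicotinamide and nucleotide turnover the median was -0.16 over 7 genes, with Pnp at 0.13 and Nt5e at -0.16. Without wild-type replicate 2 that median was -0.07 and Nt5e had -0.02. For 3 regulators of mitochondrial genes it was -0.08, or -0.04 without that mouse, with Esrra at -0.05 and Ppargc1a at -0.08. Ppargc1a had 0.04 without that mouse. On log2(FPKM + 1), where the median of all tested genes was 0.06, Esrra had 0.03 and Ppargc1a 0.15.

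**Figure D4:**
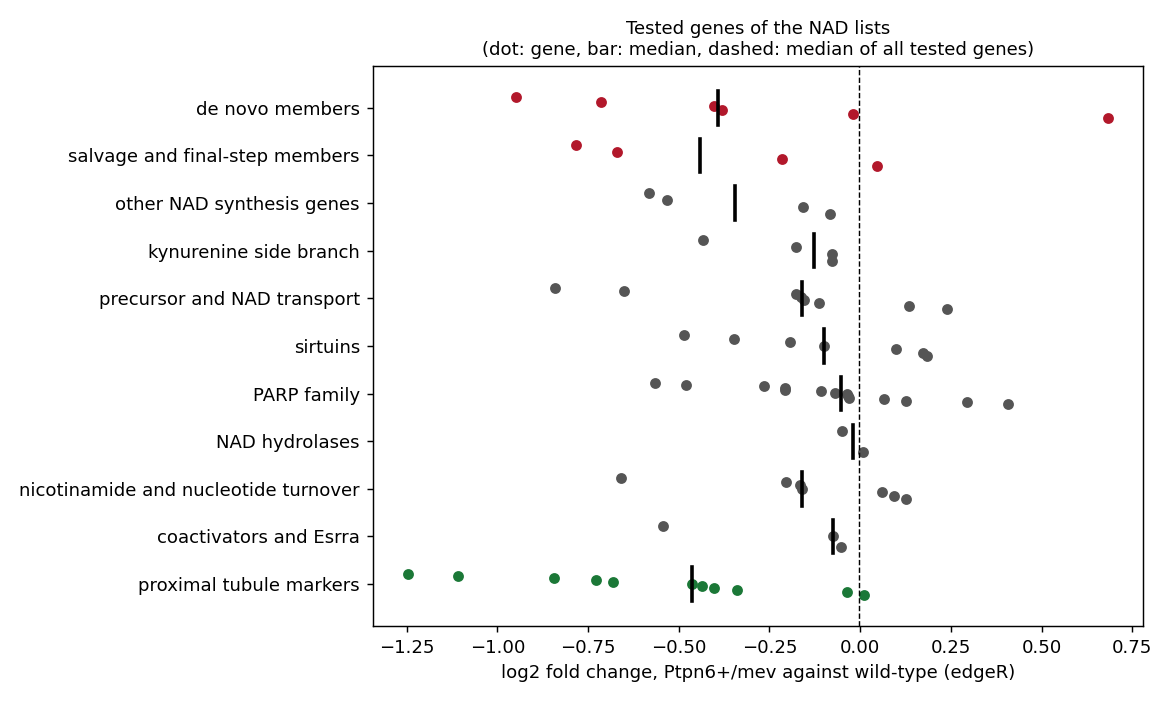
Log2 fold change of Ptpn6+/mev against wild-type kidneys (x axis, edgeR) for each tested gene of the NAD lists and of the proximal tubule markers, 1 dot per gene, with a bar at the list's median and a dashed line at the median of all tested genes. The medians are -0.39 for the de novo members, -0.44 for the salvage and final-step members (-0.16 without wild-type replicate 2), -0.35 for the other synthesis genes and -0.46 for the proximal tubule markers, and between -0.16 and -0.02 for the genes that use or turn over NAD.

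The deposited table also names KEGG pathways for each gene. Tryptophan metabolism and nicotinate and nicotinamide metabolism, which each hold some of the members, were counted, a choice made after the data had been seen. No other pathway was counted. Of 30 tested genes of tryptophan metabolism, 12 were lower and 0 higher at an unadjusted p under 0.05, beside the same 6.71% and 5.53%, and 0 passed an FDR of 0.05 by the edgeR quasi-likelihood test. At that FDR 7 were called lower by the exact test, 8 by DESeq2 and 5 by quasi-likelihood testing with wild-type replicate 2 left out, beside 1.78%, 1.88% and 1.09% of all tested genes. Their median log2 fold change was -0.34. Without the 5 members among them, 9 of 25 were lower at that unadjusted p, and the median was -0.32. Those 9 were Inmt, an N-methyltransferase, Aldh2, Aldh7a1 and Aldh9a1, aldehyde dehydrogenases, Cat, the catalase, Ehhadh and Hadh, enzymes of fatty acid oxidation, and Gcdh and Ogdh, mitochondrial dehydrogenases. Most of these serve several pathways besides that of tryptophan. Of 26 tested genes of nicotinate and nicotinamide metabolism, 4 were lower and 1 was higher at an unadjusted p under 0.05, beside 6.71% and 5.53% of all tested genes, and 0 passed an FDR of 0.05 in the quasi-likelihood test. Their median was -0.08, and 4 were called lower by the exact test and 4 by DESeq2, beside 1.78% and 1.88% of all tested genes.

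The genes whose levels followed Haao most closely over the 6 libraries were sought among 11852 tested genes with a mean FPKM of at least 1, by Pearson's r of log2(FPKM + 1). They were Nmrk1 (r = 0.997), Syne4 (0.993), Kmo (0.989), Cubn (0.987) and Anpep (0.987). Cubn encodes the endocytic receptor cubilin and Anpep an aminopeptidase, both of the proximal tubule brush border, and Syne4 a protein of the nuclear envelope. Syne4 had an FPKM of 10.3, 15.2 and 10.6 in the Ptpn6+/mev mice and 23.65, 21.2 and 21.4 in the wild-type mice. Among the members r was 0.965 for Haao with Nadsyn1 and 0.973 for Kmo with Nadsyn1. For Nampt it was -0.915 with Acmsd and -0.881 with Qprt, pairs in which wild-type replicate 2 lay at the far end of both genes. These values describe 6 libraries that share the difference between the groups and are given without a test.

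Proximal tubule markers varied between the groups as well. Of 11 markers, 7 were lower in Ptpn6+/mev kidneys at an unadjusted p under 0.05, beside 6.71% of all tested genes, and 0 passed an FDR of 0.05 by the edgeR quasi-likelihood test. The exact test and DESeq2 each called 5, beside 1.78% and 1.88% of all tested genes. Their median log2 fold change was -0.46, and -0.56 without wild-type replicate 2, when 5 passed beside 1.09% of all tested genes. Their summed FPKM was 2048 to 2496 in Ptpn6+/mev kidneys and 2912 to 3473 in wild-type kidneys. Slc13a3 and Slc22a6, carriers of dicarboxylates and organic anions, had log2 fold changes of -1.25 and -1.11, and Cubn had -0.84. Slc5a2 and Slc5a12, carriers of glucose and lactate in the early tubule, had -0.04 and 0.01, or -0.13 and -0.06 without wild-type replicate 2, so the markers differed among themselves. In bulk kidney RNA, fewer cells of a type and less RNA per cell cannot be told apart.

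Genes of NAD synthesis were also set against each marker within a mouse. How many of all tested genes were apart in such ratios was not counted, so the numbers of markers below are descriptions only. Haao was lower in every Ptpn6+/mev mouse than in every wild-type mouse for 4 of the 11 markers (Slc34a1, Slc5a2, Slc5a12 and Miox) and overlapped for the other 7. Kmo, Nadsyn1 and Nmrk1 were each lower against Slc5a2 and Slc5a12, higher against Slc13a3 and Slc22a6, and overlapped for 7. Naprt was lower against Slc5a2 and Slc5a12 and overlapped for 9. Afmid was lower against 1 marker and higher against 2, and Nmnat1 was lower against 0 and higher against 4. Acmsd was higher for 8 of the 11 markers and overlapped for 3. Its own groups overlapped, while 5 of the 11 markers were themselves apart in the lower direction in FPKM, beside 6.38% of all tested genes. The part of tubule cell number or state in the lower levels of Haao, Kmo and Nadsyn1 was not tested.

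For most lists of other cells the median depended on wild-type replicate 2. With all libraries the median log2 fold change was 0.08 for 7 tubular injury markers, -0.31 for 6 distal nephron markers, 0.11 for 8 macrophage markers, 0.02 for 5 neutrophil markers, 0.21 for 5 endothelial markers and 0.19 for 5 blood markers. Without that mouse the medians were 0.26, 0.14, -0.15, -0.14, -0.13 and -0.01 in the same order, so all but that of the injury markers changed sign. Macrophage markers summed to 104 to 134 FPKM in Ptpn6+/mev kidneys and 64.5 to 124 in wild-type kidneys, with the lowest sum in wild-type replicate 2, in which endothelial markers were also lowest at 75.8. Of 6 liver markers, Cps1 and Ahsg had 0 counts in every library and 3 could be tested. All 3 had negative log2 fold changes, with a median of -1.09, or -1.10 without wild-type replicate 2, and their part in the levels of the NAD genes was not tested. Alb, the albumin gene, reached 1.70 to 2.23 FPKM in Ptpn6+/mev kidneys and 3.68 to 6.29 in wild-type kidneys, a log2 fold change of -1.49 (adjusted p = 0.0852, edgeR quasi-likelihood test). With the exact test its adjusted p was 0.000239, and with DESeq2 0.000341, tests that called 1.78% and 1.88% of all tested genes lower. Serpina1a had -1.09 with groups apart in FPKM, as 6.38% of all tested genes were in the lower direction. Its adjusted p was 0.231 with the edgeR quasi-likelihood test, 0.0631 with the exact test and 0.0476 with DESeq2. The injury markers were mixed, with 4 of 7 positive and 3 negative. Havcr1 and Vcam1 were apart between the groups in FPKM and higher in Ptpn6+/mev kidneys, as 14.0% of all tested genes were. Their log2 fold changes were 0.27 and 1.05 (adjusted p = 0.325 and 0.188, edgeR quasi-likelihood test). For Vcam1 the adjusted p was 0.0184 with the exact test and 0.0125 with DESeq2, which called 158 and 142 of 13036 tested genes higher. Spp1, which encodes osteopontin, had a log2 fold change of -0.38 (adjusted p = 0.331, edgeR quasi-likelihood test), or -0.22 without wild-type replicate 2. Krt20 had a log2 fold change of 0.16, and of 0.63 without that mouse (adjusted p = 0.0287, edgeR quasi-likelihood test). The fit without that mouse called 93 of 13177 tested genes higher. Over the fits that each left out 1 library, Krt20 ranged from -0.05 to 0.63. Lcn2 and Sox9 overlapped between the groups, with -0.08 and -0.08, and without wild-type replicate 2 they had 0.26 and -0.19. With 1 library left out they ranged from -0.47 to 0.26 and from -0.21 to 0.15.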

How the data were processed

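Kidney mRNA of 6 mice was sequenced, 3 per group, with 1 library per mouse. Per the labels and the study's methods, the authors aligned reads to GRCm38.p5 with TopHat2 and Bowtie2, and Cufflinks and RSEM appear in the submitters' processing notes. For each of 21367 genes the authors deposited estimated counts, FPKM values and KEGG pathways in 1 table. Which tool made the estimated counts is not given in the sources used here, nor is the use of strand in counting. Counts need not be whole (1744 genes had a fractional count) and were rounded, and rows sharing a symbol were kept apart by identifier.

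The quasi-likelihood F-test of edgeR 4.0.16 (R 4.3.3) was run on TMM-scaled counts of the 13036 genes that filterByExpr kept. Benjamini-Hochberg adjustment of its p-values over those genes gave the FDR. Depth was 10271590 to 12361745 counts per library, and the standard errors take in both counting error and the spread between mice. Libraries of a group differed by more than counting noise, chi-square over degrees of freedom being 6.52 to 45.7, and the labels number the mice as separate animals.

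Alternatives, 15 in all, were 2 other scalings, DESeq2 1.42.0, edgeR's exact test, limma 3.58.1 on log2(FPKM + 1) or log2(FPKM + 0.1), 2 other filters, a block for replicate number and the removal of each library in turn. The scripts were tested on simulated data. Positions are from GENCODE M21 (GRCm38) and upstream sequences from RefSeq (GRCm38.p6), and the upstream sequences of other members are not reported here.

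The members, the lists and the tests were chosen with earlier results of these data known. Named genes are the 10 members, Ptpn6, the 2 most abundant of each pathway list, those with an unadjusted p under 0.05 and groups apart in FPKM, and the 5 genes most like the member of lowest p. Other names (markers, KEGG genes, Tk1, Ido1, Ido2 and Tdo2) were added after their values were seen. Figures used matplotlib 3.10.9.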

Additional observations from a re-analysis of the deposited data

How the results depend on the processing

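The number of genes at an FDR under 0.05 depended on the test. It was 18 with all libraries in edgeR's quasi-likelihood test, 387 in DESeq2, 390 in the exact test and 52 without a filter on low counts. With 1 library left out the extremes were 1, when Ptpn6+/mev replicate 3 was missing, and 237, when wild-type replicate 2 was. It was 4 and 11 without Ptpn6+/mev replicates 1 and 2, and 10 and 67 without wild-type replicates 1 and 3. The split was 8 lower and 14 higher on log2(FPKM + 1) and 8 and 11 on log2(FPKM + 0.1), against 9 and 9 on counts. Of the members 3 were called in DESeq2 and 3 in the exact test, and between 0 and 1 with a library left out. Of the other pathway genes 2 were called in each of those tests. The cause was not tested. For single members, 81 of 90 values with all libraries and 56 of 60 with 1 library left out kept their direction and side of the threshold, 6 and 2 came to pass it, and 3 and 2 changed sign.

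Sign changed for 1 member, Qprt, and for 7 other named pathway genes. For Qprt the log2 fold change was 0.090 on log2(FPKM + 1), 0.093 on log2(FPKM + 0.1) and ranged from -0.23 to 0.20 with a library left out. On log2(FPKM + 1) and log2(FPKM + 0.1) it was 0.048 and 0.087 for Cd38, 0.030 and 0.030 for Esrra, and 0.15 and 0.17 for Ppargc1a, beside medians of 0.06 and 0.08 over all tested genes in those fits. With a library left out it ranged from -0.32 to 0.27 for Bst1, -0.33 to 0.21 for Cd38, -0.18 to 0.044 for Ppargc1a, -0.19 to 0.0072 for Nmnat3, -0.056 to 0.32 for Parp3 and -0.015 to 0.16 for Tnks2.

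No pairing of the mice by replicate number was seen. Deviations of same-numbered libraries from their group means correlated at -0.18 to -0.13, and no library correlated best with its own number. Such deviations cancel out within a group, so these values are tied to each other and cannot exclude a pairing. With the number as a replicate block, 1 gene passed an FDR of 0.05, 0 members and 0 other pathway genes did, and Qprt had 0.020, Bst1 -0.0073 and Cd38 0.0043. Depth alone did not set the precision: the SE was 0.38 for Kynu with 34 to 109 counts per library and 0.38 for Nampt with 718 to 2143.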
